A study of Mus musculus with 4 samples.

Results

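The genes described here are 59 genes of mitosis and cytokinesis, taken by their symbols from the 45706 genes counted in mouse lungs, and they were compared between Myh10-/- and Myh10+/+ lungs. They were chosen for what their proteins do in dividing cells and not by their counts in these lungs, although earlier results of the data were known. RNA came from the left lung lobes of C57BL/6 embryos at embryonic day 17 (E17), 2 of them Myh10+/+ (wild type) and 2 Myh10-/-, and each lung was sequenced as a library of its own. Myh10-/- stands for embryos with 2 copies of the missense allele L458R of Myh10, the gene of nonmuscle myosin II heavy chain B, which arose in a chemical mutagenesis screen. The allele is present in every cell of the embryo, and no lung received a treatment. The labels do not name litters, and a difference between litters cannot be told apart from one between the genotypes. The p-values below set the difference between genotypes against the spread between lungs of a genotype, estimated with help from all genes tested. Whole lobes were used, and a change in the number of cells of a type cannot be told apart from a change in the RNA of each cell.

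A dividing cell condenses its chromosomes, builds a bipolar spindle from microtubules and attaches each chromosome to it through kinetochores, which are protein complexes assembled on centromeres. The spindle assembly checkpoint delays the separation of sister chromatids until the attachments are complete. In cytokinesis the central spindle places a ring of actin and nonmuscle myosin II at the cell equator, the ring constricts, and the midbody that remains is cut at abscission. Most genes of these proteins are transcribed late in the cell cycle, and the RNA of mitotic genes in a tissue is widely used as a sign of how many of its cells are dividing.

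Genes transcribed in this phase are known for 2 short promoter sequences, the CCAAT box and the cell cycle genes homology region (CHR), so the promoters of the 59 genes were searched for them. The search used RefSeq promoters on GRCm38.p6, each from 250 bases before to 50 bases after the start of transcription, and CHR was taken as TTTGAA or TTCGAA and the CCAAT box as CCAAT, on either strand. RefSeq promoters were matched for 50 of the 59 genes, 53 promoters in all. The promoters below run from 120 bases before to 30 bases after the start, 5′ to 3′ on the strand of the gene, and the capitals mark CCAAT boxes and CHR sequences, which read ATTGG and TTCAAA where they lie on the opposite strand. The first 6 belong to genes whose counts were higher in Myh10-/- lungs, Kif23 and Racgap1 to genes of the central spindle, and Ccnb2, Cdc20 and Pttg1 to genes whose counts did not pass the test.
Kif11, chr19:37376262-37376411, plus strand: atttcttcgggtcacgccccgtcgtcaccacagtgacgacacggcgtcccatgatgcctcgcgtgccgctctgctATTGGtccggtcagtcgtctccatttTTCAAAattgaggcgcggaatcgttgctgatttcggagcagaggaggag
Kif20b, chr19:34922238-34922387, plus strand: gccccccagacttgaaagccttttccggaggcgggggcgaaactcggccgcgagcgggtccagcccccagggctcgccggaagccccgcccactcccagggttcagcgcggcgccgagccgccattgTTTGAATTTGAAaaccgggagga
Aspm, chr1:139454653-139454802, plus strand: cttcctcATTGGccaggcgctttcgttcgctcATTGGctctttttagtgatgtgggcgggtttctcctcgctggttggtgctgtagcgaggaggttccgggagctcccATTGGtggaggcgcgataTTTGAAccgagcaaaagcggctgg
Bub1, chr2:127831830-127831979, minus strand: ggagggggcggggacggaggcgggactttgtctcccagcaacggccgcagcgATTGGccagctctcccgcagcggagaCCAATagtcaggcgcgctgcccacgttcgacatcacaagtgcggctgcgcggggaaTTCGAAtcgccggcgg
Cenpa, chr5:30666766-30666915, plus strand: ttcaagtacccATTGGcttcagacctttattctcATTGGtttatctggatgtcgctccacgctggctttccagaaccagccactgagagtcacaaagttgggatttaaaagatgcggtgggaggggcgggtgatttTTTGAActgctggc
Cenpf, chr1:189688057-189688206, minus strand: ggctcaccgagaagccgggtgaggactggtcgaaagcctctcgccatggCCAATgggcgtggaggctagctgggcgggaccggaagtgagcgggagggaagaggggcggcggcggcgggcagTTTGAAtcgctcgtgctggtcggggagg
Kif23, chr9:61946770-61946919, minus strand: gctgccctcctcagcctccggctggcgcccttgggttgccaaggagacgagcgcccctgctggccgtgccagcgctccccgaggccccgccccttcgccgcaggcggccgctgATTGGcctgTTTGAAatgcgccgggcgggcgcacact
Racgap1, chr15:99651627-99651776, minus strand: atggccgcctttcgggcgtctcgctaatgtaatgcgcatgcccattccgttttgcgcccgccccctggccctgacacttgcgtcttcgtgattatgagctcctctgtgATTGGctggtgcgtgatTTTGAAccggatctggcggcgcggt
Ccnb2, chr9:70421525-70421674, minus strand: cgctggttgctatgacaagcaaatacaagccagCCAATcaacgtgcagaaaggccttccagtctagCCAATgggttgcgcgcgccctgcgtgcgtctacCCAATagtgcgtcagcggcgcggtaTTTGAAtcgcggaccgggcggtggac
Cdc20, chr4:118437314-118437463, minus strand: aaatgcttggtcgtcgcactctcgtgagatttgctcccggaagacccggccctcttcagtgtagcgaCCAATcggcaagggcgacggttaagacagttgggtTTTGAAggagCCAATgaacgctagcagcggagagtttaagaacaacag
Pttg1, chr11:43425952-43426101, minus strand: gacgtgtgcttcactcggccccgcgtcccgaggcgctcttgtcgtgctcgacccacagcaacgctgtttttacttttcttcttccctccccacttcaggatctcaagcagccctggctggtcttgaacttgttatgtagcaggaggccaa
A CHR sequence was present in 41 of the 53 promoters (77.4%), against 19.2% of all 32851 RefSeq promoters of this length. In the 250 bases before the start alone, it was present in 22 (41.5%, against 17.1%). CCAAT was present in 36 of them (67.9%, against 37.4%), and 34 (64.2%) held both, against 7.52% of all promoters. With the 50 bases after the start left out, both were present in 35.8%, against 6.02%. In 36 promoters (67.9%) a CHR lay within 50 bases of the start, as it did in 5.31% of all promoters. The E2F sequences TTTCCCGC and TTTGGCGC were rarer, in 3 of the 53 (5.66%, against 1.56%), and a TATAAA sequence was found in 1 (1.89%, against 13.6%). Among promoters of the genes tested, the E2F and TATAAA shares were 2.49% and 7.89%. Both lay within the 95% binomial intervals of the 53 promoters, 1.94% to 15.4% for E2F and 0.334% to 9.94% for TATAAA. The Kif20b promoter holds a pair of CHR sequences side by side and no CCAAT box, and the printed Ccnb2 promoter has 3 CCAAT boxes before its CHR. Pttg1 has neither sequence in its window. That window covers chromosome 11 from 43425932 to 43426231, inside the annotated gene, which reaches to 43426251 on the minus strand. The bases before that annotated end were therefore not searched. These are matches of letters, and binding was not measured.

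All 59 genes had enough counts to be tested, between 279 and 20253 reads in a lung. Counted reads numbered 23156026 and 19116971 for Myh10+/+ and 27573824 and 32055306 for Myh10-/-, so the Myh10-/- libraries were the deeper ones, and levels are stated in CPM, read counts brought to the same library size by TMM normalization. Xist was high in 1 lung of each genotype, Myh10+/+ lung 1 and Myh10-/- lung 2, and the Y-linked Ddx3y in the other lungs. Myh10 itself had 505 and 504 CPM in Myh10+/+ and 539 and 513 CPM in Myh10-/- lungs (adjusted p = 0.662), and a missense allele leaves the gene countable, so this checks no label. Lung identity was clear from Nkx2-1, which lay between 434 and 455 CPM in the lungs.

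The mitotic genes were slightly but widely higher in Myh10-/- lungs. Of the 59 genes, 58 had a positive fold change and 1, Pttg1, a negative one, with a median log2 fold change of 0.19 (14.2% higher), against a median of 0.00 over the 18763 genes tested, of which 50.5% had a positive fold change. By edgeR's quasi-likelihood test, 10 of the 59 (16.9%) were higher at an adjusted p under 0.05 and 0 were lower, where 0.298% of all tested genes were higher and 1.34% lower, 1.64% in all. At an unadjusted p under 0.05, 43 (72.9%) were higher and 0 lower, against 7.52% and 9.02% of all tested genes. In 53 genes (89.8%) both Myh10-/- lungs were above both Myh10+/+ lungs, against 23.9% of all tested genes. With library totals in place of TMM, 112 of the 346 genes that passed were higher, against 56 of 308, and 15 of the 59 passed. The changes were small, since the largest was a log2 fold change of 0.35, and 0 of the 59 reached the log2 fold change of 1 that the study set as its limit.

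Summed over the 59 genes, the level was 6032 and 5857 CPM in lungs 1 and 2 of Myh10+/+ and 7096 and 6633 CPM in lungs 1 and 2 of Myh10-/-, means of 5944 ± 124 and 6864 ± 327 CPM (SD, n = 2), 15.5% higher. The groups did not overlap in this sum. The Myh10-/- lungs also differed from each other, with 46 of the 59 genes lower in lung 2 than in lung 1 and a median log2 difference of 0.09, while the median difference between the Myh10+/+ lungs was 0.03. Against Myh10+/+ lungs 1 and 2, the median log2 difference over the 59 genes was 0.22 and 0.25 for Myh10-/- lung 1 and 0.13 and 0.17 for Myh10-/- lung 2. The rise was therefore present in each Myh10-/- lung and smaller in the second.

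**Figure D1:**
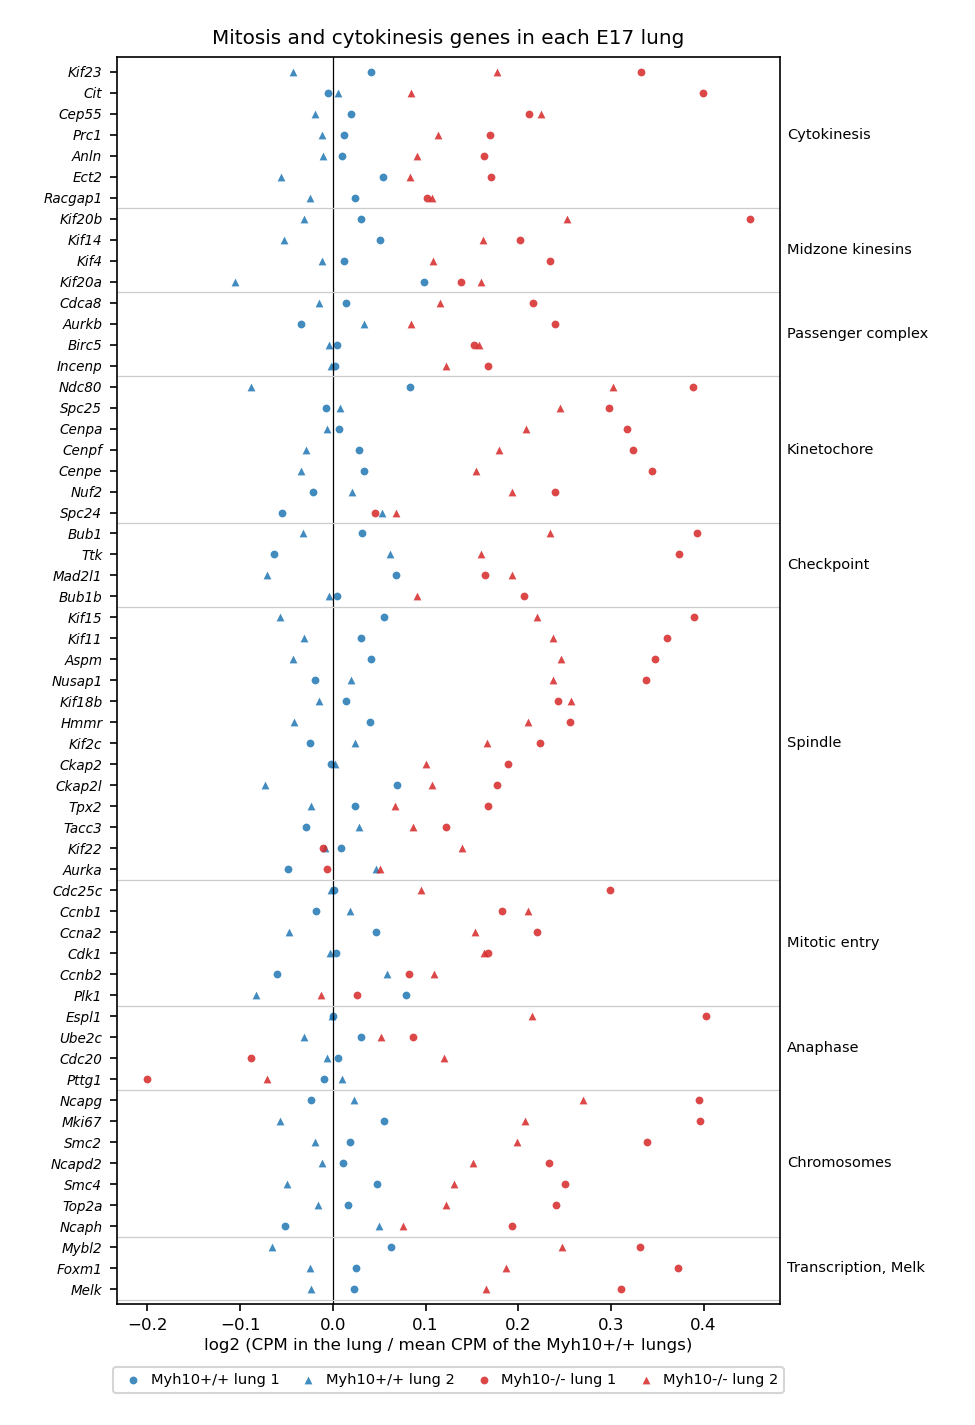
Level of each of the 59 genes in each lung, as the log2 ratio of its CPM to the mean CPM of the 2 Myh10+/+ lungs (horizontal axis), with genes grouped by role. Points are single lungs, blue for Myh10+/+ and red for Myh10-/-, and the red points lie to the right of both blue points in 53 genes.

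How many genes passed depended on single lungs. In fits with a lung left out, the number moved among all tested genes as well as among the 59. The median log2 fold change of the 59 genes stayed between 0.16 and 0.23 in these fits.

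Among the 7 genes of cytokinesis proper, which act at the central spindle, the ring and the midbody, 0 passed the adjusted threshold. All 7 had higher values in both Myh10-/- lungs than in both Myh10+/+ lungs, 5 of them had an unadjusted p under 0.05, and their median log2 fold change was 0.14 (10.3% higher). Kif23, the kinesin of the centralspindlin complex that bundles central spindle microtubules, had 108 and 102 CPM in Myh10+/+ lungs and 132 and 119 CPM in Myh10-/- lungs. Both Myh10-/- lungs were above the range of the Myh10+/+ lungs, and the log2 fold change was 0.26 (95% interval 0.12 to 0.39, adjusted p = 0.0666). Kif23 passed in 7 of the 12 fits that used all 4 lungs. Its centralspindlin partner Racgap1, a GTPase-activating protein, had 131 and 126 CPM in Myh10+/+ lungs and 138 and 138 CPM in Myh10-/- lungs (log2 fold change 0.10, interval -0.00394 to 0.21, adjusted p = 0.318).

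Ect2, the exchange factor that centralspindlin recruits to switch on RhoA, was measured at 94.6 and 87.7 CPM in Myh10+/+ lungs and 102 and 96.5 CPM in Myh10-/- lungs. The lower Myh10-/- lung lay just above the higher Myh10+/+ lung, and the log2 fold change of 0.13 did not pass (adjusted p = 0.334). Anln, the anillin scaffold that ties the ring to the membrane, had 122 and 121 CPM in Myh10+/+ lungs and 136 and 129 CPM in Myh10-/- lungs (log2 fold change 0.13, interval 0.01 to 0.24, adjusted p = 0.243). For Prc1, which crosslinks antiparallel microtubules of the central spindle, the values were 160 and 157 CPM against 178 and 171 CPM (log2 fold change 0.14, adjusted p = 0.168). The groups did not overlap in either gene.

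Cit, the gene of citron kinase of the midbody, rested most on 1 lung, with 63.3 and 63.7 CPM in Myh10+/+ lungs and 83.7 and 67.3 CPM in Myh10-/- lungs. Its log2 fold change was 0.25 (interval 0.05 to 0.45, adjusted p = 0.199), and with a lung left out it lay between 0.09 and 0.40. Cep55, which recruits the abscission machinery to the midbody, was more even, with 57.4 and 55.9 CPM in Myh10+/+ lungs and 65.6 and 66.2 CPM in Myh10-/- lungs (log2 fold change 0.22, adjusted p = 0.139). Cit and Cep55 thus had larger fold changes than Ect2, Racgap1 and Anln, but their intervals overlapped those of all 3.

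Of the 4 kinesins that work at the spindle midzone, Kif20b was higher in Myh10-/- lungs and had the largest fold change of all 59 genes. It was at 84.9 and 81.3 CPM in Myh10+/+ lungs and at 113 and 99.0 CPM in Myh10-/- lungs. No Myh10-/- lung fell within the Myh10+/+ range, and the log2 fold change was 0.35 (interval 0.20 to 0.51, adjusted p = 0.0296), or 27.8% more. Kif20b (ENSMUSG00000024795) lies on chromosome 19 from 34922361 to 34975745 on GRCm38. Kif14, Kif4 and Kif20a had log2 fold changes of 0.18, 0.17 and 0.15 and did not pass. The 4 genes of the chromosomal passenger complex, which corrects faulty attachments and then moves to the midzone, lay close together at log2 fold changes between 0.14 and 0.17, and 0 passed. Its kinase gene Aurkb had 55.0 and 57.7 CPM in Myh10+/+ lungs and 66.6 and 59.8 CPM in Myh10-/- lungs (log2 fold change 0.16, adjusted p = 0.310).

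Kinetochore genes had a median log2 fold change of 0.25, and 2 of the 7 passed. Cenpa, the histone H3 variant that marks centromeres, was counted at 130 and 129 CPM in Myh10+/+ lungs and 161 and 149 CPM in Myh10-/- lungs. Its Myh10+/+ values were nearly equal and both Myh10-/- values lay well above them, with a log2 fold change of 0.26 (adjusted p = 0.0313). Cenpf, a large protein of the outer kinetochore, rose from 182 and 175 CPM to 224 and 203 CPM (log2 fold change 0.25, adjusted p = 0.0438). Ndc80, Nuf2, Spc25 and Spc24 encode the 4 subunits of the NDC80 complex, which holds the microtubule end, and they did not share 1 size of change. Ndc80 had the second largest fold change of the 59 genes, 0.34 on the log2 scale (38.5 and 34.2 CPM against 47.6 and 44.8 CPM, adjusted p = 0.0622), and it passed in 7 of 12 fits. Spc25 and Nuf2 had log2 fold changes of 0.27 and 0.22, and Spc24 had 0.06 (38.3 and 41.3 CPM against 41.1 and 41.7 CPM, adjusted p = 0.760), with overlapping groups.

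The checkpoint gene Bub1, a kinase of unattached kinetochores, was higher in Myh10-/- lungs at 104 and 93.4 CPM, against 81.2 and 77.7 CPM in Myh10+/+ lungs (log2 fold change 0.31, adjusted p = 0.0393). The other checkpoint genes Ttk, Mad2l1 and Bub1b had log2 fold changes of 0.27, 0.18 and 0.15. Each had both Myh10-/- lungs above both Myh10+/+ lungs, and none of the 3 passed the adjusted threshold, with unadjusted p of 0.0102, 0.0223 and 0.0211.

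Spindle genes contributed 4 of the 10 genes that passed. Kif11, the motor that slides antiparallel microtubules apart to make the spindle bipolar, (ENSMUSG00000012443, on chromosome 19 from 37376403 to 37421859) had the lowest adjusted p of the 59 genes. It was at 182 and 174 CPM in Myh10+/+ lungs and at 229 and 210 CPM in Myh10-/- lungs (log2 fold change 0.30, interval 0.18 to 0.42, adjusted p = 0.0196). Kif15, a motor that can share this task, rose from 95.5 and 88.3 CPM to 120 and 107 CPM (log2 fold change 0.31, adjusted p = 0.0475). Nusap1, which binds and bundles spindle microtubules, had 119 and 122 CPM in Myh10+/+ lungs and 152 and 142 CPM in Myh10-/- lungs (log2 fold change 0.29, adjusted p = 0.0220). For Aspm, a protein of the spindle poles known from microcephaly, the values were 104 and 98.4 CPM against 129 and 120 CPM (log2 fold change 0.30, adjusted p = 0.0288). In each of these genes both Myh10-/- lungs exceeded both Myh10+/+ lungs, and lung 1 was the higher Myh10-/- lung, as in all 10 genes that passed. Aurka, the kinase of the spindle poles, had 44.0 and 47.0 CPM in Myh10+/+ lungs and 45.3 and 47.1 CPM in Myh10-/- lungs (log2 fold change 0.02, interval -0.14 to 0.19, adjusted p = 0.916), and its lungs overlapped.

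Set beside each other, the 7 cytokinesis genes changed less at the median than the 24 spindle, kinetochore and checkpoint genes, whose median log2 fold change was 0.24 (18.2% higher) with 7 of 24 past the threshold. The difference of the medians was -0.10 on the log2 scale, and no test of it was run, because the lists were chosen with the results known. Taken lung by lung on log2 CPM centred for each gene, the cytokinesis median minus the spindle median was 0.04 and 0.02 in Myh10+/+ lungs and -0.03 and -0.03 in Myh10-/- lungs, which did not overlap. The lists themselves overlapped, and 11 of the 24 genes had a log2 fold change within the cytokinesis range of 0.10 to 0.26, with 9 above it and 4 below. With the 4 midzone kinesins and the 4 passenger genes added to the cytokinesis genes, the median of these 15 was 0.16 and the difference -0.08. All 7 cytokinesis genes and all 24 others had positive fold changes.

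**Figure D2:**
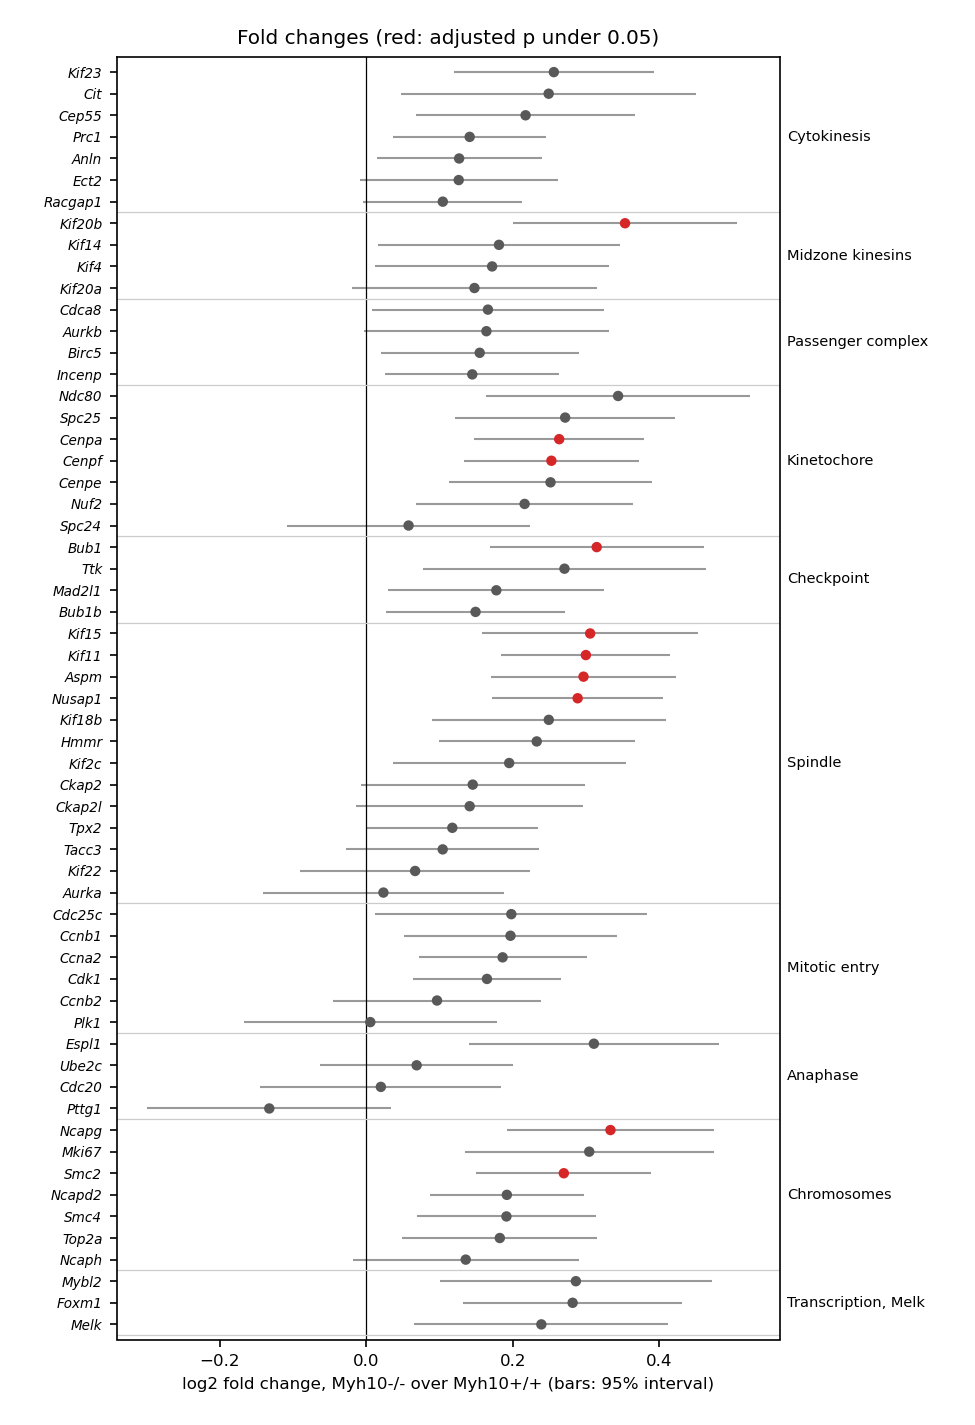
Log2 fold change of each gene, Myh10-/- over Myh10+/+, with its 95% interval from edgeR's quasi-likelihood fit, grouped by role. Red points mark the 10 genes with an adjusted p under 0.05, and the interval includes 0 in 16 of the 59 genes, among them Plk1, Cdc20 and Pttg1.

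Among the 7 genes that condense and resolve chromosomes, all had positive fold changes without overlap between the groups, and 2 passed. Smc2, a core subunit of condensin, rose from 157 and 153 CPM to 196 and 178 CPM (log2 fold change 0.27, adjusted p = 0.0326), and Ncapg, a condensin I subunit, from 73.5 and 75.9 CPM to 98.2 and 90.1 CPM (log2 fold change 0.33, adjusted p = 0.0277). Smc4, Ncapd2 and Ncaph, the other condensin genes among the 59, had log2 fold changes of 0.19, 0.19 and 0.14 and did not pass. Top2a, the topoisomerase that untangles sister chromatids, had 468 and 457 CPM in Myh10+/+ lungs and 547 and 504 CPM in Myh10-/- lungs (log2 fold change 0.18, adjusted p = 0.161). Mki67, the gene of the proliferation antigen Ki-67, had the highest CPM of the 59 genes, at 567 and 524 CPM in Myh10+/+ lungs and 718 and 629 CPM in Myh10-/- lungs. Its lungs did not overlap, and its log2 fold change of 0.30 (interval 0.13 to 0.47, adjusted p = 0.0770) passed in 7 of the 12 fits with all lungs. Per kilobase of exon, Smc4, Mki67, Top2a and Ccnb2 were the most abundant, at 56.2, 54.2, 51.3 and 50.7 CPM per kb in Myh10+/+ lungs, and Mybl2 and Kif14 the least, at 3.31 and 3.80 CPM per kb.

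Of the 6 genes of mitotic entry, 0 passed. Cdk1, the kinase that drives cells into mitosis, had replicates that hardly differed, with 159 and 158 CPM in Myh10+/+ lungs and 178 and 177 CPM in Myh10-/- lungs (log2 fold change 0.16, interval 0.06 to 0.27, adjusted p = 0.102). Its partner gene Ccnb1 was at 62.9 and 64.5 CPM against 72.3 and 73.7 CPM (log2 fold change 0.20, adjusted p = 0.166), but 35.2% of its 75-base windows also occur in its pseudogenes and reads from them were not counted. Plk1, a kinase of mitotic entry and exit, had 49.5 and 44.2 CPM in Myh10+/+ lungs and 47.7 and 46.4 CPM in Myh10-/- lungs. Both Myh10-/- lungs lay between the Myh10+/+ lungs, and the log2 fold change was 0.01 (interval -0.17 to 0.18, adjusted p = 0.984).

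The 4 genes that act at anaphase had log2 fold changes from -0.13 to 0.31, and 0 passed. Espl1, the separase that cuts cohesin, was at 53.4 and 53.4 CPM in Myh10+/+ lungs and 70.5 and 62.0 CPM in Myh10-/- lungs (log2 fold change 0.31, adjusted p = 0.0739). Pttg1, the securin that holds separase inactive, went the other way, with 23.8 and 24.2 CPM in Myh10+/+ lungs and 20.9 and 22.8 CPM in Myh10-/- lungs (log2 fold change -0.13, interval -0.30 to 0.03, adjusted p = 0.418). Both Myh10-/- lungs were below both Myh10+/+ lungs, which 24.3% of all tested genes showed, and Pttg1 did not pass. Cdc20, which activates the anaphase-promoting complex, had 75.8 and 75.2 CPM in Myh10+/+ lungs and 71.0 and 82.0 CPM in Myh10-/- lungs, on either side of them (log2 fold change 0.02, adjusted p = 0.930), and Ube2c, an E2 enzyme of that complex, had a log2 fold change of 0.07 (adjusted p = 0.614). The 5 genes with the lowest fold changes were thus Pttg1, Plk1, Cdc20, Aurka and Spc24. The transcription factors Foxm1 and Mybl2, which act on promoters of this kind, and the kinase gene Melk had log2 fold changes of 0.28, 0.29 and 0.24, each without overlap, and did not pass (adjusted p between 0.0654 and 0.160), although Foxm1 passed in 9 of the 12 fits with all lungs.

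Both promoter sequences occurred in genes that passed and in genes that did not. CHR was present in 9 of the 10 genes that passed, Nusap1 being the exception, and in 29 of the 40 others with a promoter. It was present in 6 of the 7 cytokinesis genes, where Cit lacked it. Of the spindle, kinetochore and checkpoint genes, 17 of 22 with a promoter held it. The Cit promoter searched starts at 115845406 on chromosome 5, past the annotated start of the gene at 115845278. Of the 8 genes with a log2 fold change under 0.1, 7 had a promoter in the table and 6 of these held both CHR and CCAAT, among them Cdc20 and Ccnb2, as printed above.

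The 5 genes with the lowest fold changes all had under 3 kb of exon. Across the 59 genes the log2 fold change had a Spearman correlation of 0.53 with exon length and -0.42 with GC content, and across all tested genes these were 0.04 and -0.24 (n = 18664). These correlations are across genes of the same 4 libraries and are given without a test. The 10 genes with under 3 kb of exon, among them Plk1, Cdc20, Aurka, Spc24, Pttg1 and Ccnb2, had a median log2 fold change of 0.06 and 0 passed, while the 49 longer genes had a median of 0.20. Among all tested genes the medians of shorter and longer genes were -0.01 and 0.01.

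With GC content and exon length corrected in each lung, the correlation with length was 0.33 and that with GC content 0.06, and the shorter and longer genes had medians of 0.09 and 0.17. The median of the 59 genes was 0.17, and 58 remained positive. With this correction 12 genes passed, 6 of the 10 named above (Kif20b, Cenpa, Kif11, Kif15, Nusap1 and Aspm) and 6 others, among them Kif23 (adjusted p = 0.0411), Espl1 (adjusted p = 0.0303) and Foxm1 (adjusted p = 0.0199). Cenpf, Bub1, Smc2 and Ncapg no longer passed, with adjusted p of 0.0522, 0.0614, 0.0742 and 0.114. The cytokinesis median minus the spindle, kinetochore and checkpoint median was -0.09 after the correction. With the midzone kinesins and passenger genes added to the cytokinesis genes, the corrected medians were close, at 0.170 against 0.178. The difference thus depended on which genes were counted as cytokinesis genes.

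**Figure D3:**
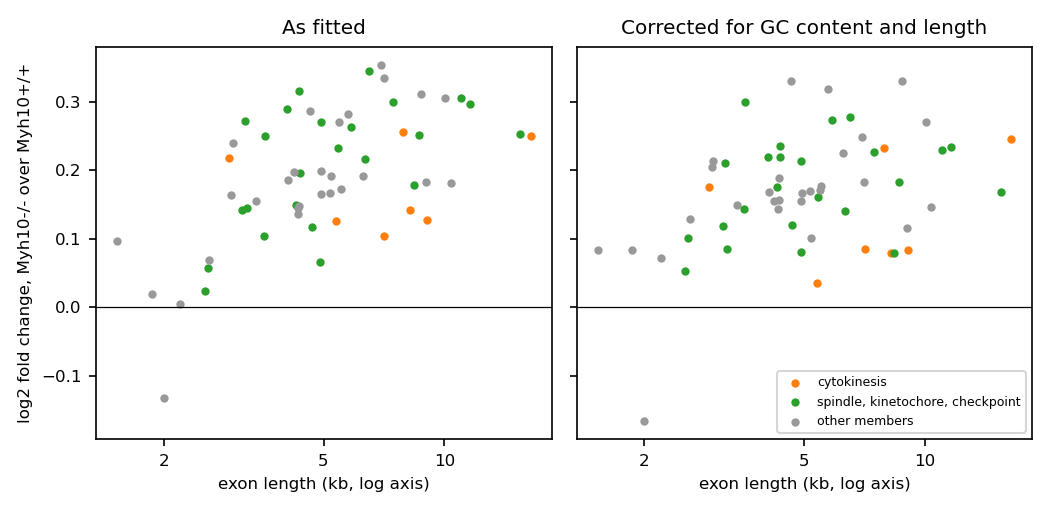
Log2 fold change of each gene, Myh10-/- over Myh10+/+, against its exon length in kb on a log axis, as fitted (left) and after correction for GC content and exon length (right). Each point is a gene, and in the left panel the genes under 3 kb have a median of 0.06 against 0.20 for longer ones.

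The counts of a few genes are uncertain for reasons of sequence. Exons of 14 of the 59 genes overlap an exon on the opposite strand, and the strand setting of the counting is not given in the sources used here. Among the 10 genes that passed these were Nusap1 (172 bp) and Ncapg (944 bp). Over 5% of the 75-base windows were shared with another gene in 10 of the 59, from 5.33% in Ncapg to 29.3% in Kif20a and 35.2% in Ccnb1, and only Ncapg among them passed. The windows were matched on either strand, so exons on the opposite strand can enter these shares too. Kif20a and Ncapg had such overlap (1271 bp and 944 bp), and Ccnb1 had none.

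Mitotic genes outside the 59 also had mostly positive fold changes. Of all tested genes, 50.5% had positive fold changes, and 0.298% were higher at an adjusted p under 0.05. At an unadjusted p under 0.05, 7.52% were higher and 9.02% lower. Of 46 further genes, 45 had positive fold changes with a median of 0.21, 31 had an unadjusted p under 0.05, and 4 passed, Depdc1a (log2 fold change 0.44, adjusted p = 0.0196), Knl1 (log2 fold change 0.43, adjusted p = 0.0211), Cenpk (log2 fold change 0.37, adjusted p = 0.0305) and Ska1 (log2 fold change 0.40, adjusted p = 0.0493). Knl1, listed in the table as Casc5, is the scaffold that receives Bub1 at the kinetochore, and it was at 93.4 and 78.2 CPM in Myh10+/+ lungs and 122 and 110 CPM in Myh10-/- lungs. Genes of DNA replication, which precedes mitosis, had a median of 0.14 over 38 genes, 36 of them positive, and 0 past the adjusted threshold, while 12 were higher and 1 lower at an unadjusted p under 0.05 and 1 passed in the Wald test of DESeq2. Pcna, the sliding clamp of DNA polymerase, was at 122 and 120 CPM in Myh10+/+ lungs and 131 and 137 CPM in Myh10-/- lungs (log2 fold change 0.15, adjusted p = 0.169).

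Among 24 genes of a list of cell cycle brakes and their regulators, the median log2 fold change was -0.01. Of these, 10 had positive and 14 negative fold changes. At an unadjusted p under 0.05, 3 were higher and 4 lower, where 7.52% and 9.02% of all tested genes were. At the adjusted threshold 0 were higher and 2 lower. Of all tested genes, 1.34% were lower at the adjusted threshold. Cdkn1a, the inhibitor p21 of cyclin-dependent kinases, fell from 18.5 and 17.6 CPM to 12.9 and 13.2 CPM (log2 fold change -0.47, adjusted p = 0.0198), and Btg2, an antiproliferative gene, from 230 and 238 CPM to 182 and 193 CPM (log2 fold change -0.32, adjusted p = 0.0108). The lungs of the genotypes did not overlap in either gene. Of 37 genes of the contractile ring and of abscission, 14 had positive fold changes, the median was -0.05, and 2 were lower, Myh14, a paralogue of Myh10 (log2 fold change -0.52, adjusted p = 4.99e-04), and Actg1, cytoplasmic actin (log2 fold change -0.21, adjusted p = 0.0479). Myh9, the third nonmuscle myosin II heavy chain gene, had a log2 fold change of -0.19 (adjusted p = 0.169).

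Markers of cell types in the lobe differed between the genotypes as well. Lower means an adjusted p under 0.05 here, as in 1.34% of all tested genes. Summed epithelial markers were at 1849 and 1876 CPM in Myh10+/+ lungs and 1633 and 1677 CPM in Myh10-/- lungs, with 4 of 12 lower (Cdh1, Krt8, Krt19 and Elf3), while Nkx2-1 had a log2 fold change of 0.02. Mesenchymal markers differed little in sum, at 5962 and 6093 CPM against 5914 and 5781 CPM, with 0 of 12 past the threshold. This sum rests largely on Col1a1, Col1a2 and Col3a1, with means of 839, 1236 and 1554 CPM in Myh10+/+ lungs. Single log2 fold changes ran from -0.18 (Foxf1) to 0.17 (Tbx5), 6 of them positive and 6 negative. Endothelial markers were at 2336 and 2331 CPM against 2168 and 2145 CPM (1 of 12 lower). Leukocyte markers were at 407 and 383 CPM against 306 and 353 CPM (2 of 12 lower, Lyz2 and Laptm5). The leukocyte sum rests largely on Lyz2, with means of 180 CPM in Myh10+/+ and 132 CPM in Myh10-/- lungs. Laptm5 passed only just (adjusted p = 0.04997), and 3 of the 12 had positive fold changes. Erythroid markers summed to 4469 and 5563 CPM against 3976 and 4488 CPM (2 of 11 lower), which overlapped, and striated muscle markers to 325 and 390 CPM against 268 and 240 CPM (5 of 11 lower), where Nppa was left untested at 0.0311 to 0.0873 CPM. Their part in the higher mitotic counts was not tested.

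**Figure D4:**
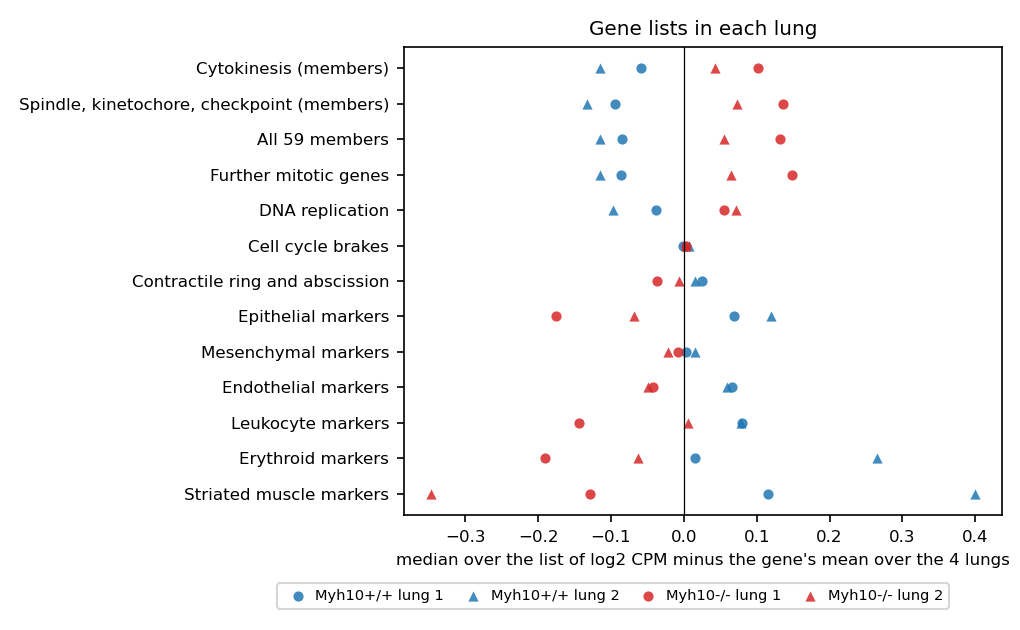
Median over each gene list of log2 CPM minus the mean of the gene over the 4 lungs (horizontal axis), for each lung. Blue points are Myh10+/+ and red points Myh10-/- lungs. The mitotic and replication lists lie higher in both Myh10-/- lungs, the mesenchymal markers are close to 0, and the epithelial, endothelial and striated muscle markers lie lower.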

How the data were processed

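Total RNA of E17 left lung lobes was sequenced from 2 Myh10+/+ and 2 Myh10-/- mice with a stranded mRNA kit and single-end reads. The authors used Reaper 15-065 for trimming, STAR 2.4.0a for alignment to GRCm38 and featureCounts 1.5.1 for counting on exons, and they dropped ambiguous reads, those on several genes or at several places. The deposited values are raw counts per gene without normalization, 1 column for each lung. Depth bounds what can be seen, and 19116971 to 32055306 reads per lung gave each of the 59 genes at least 279 counts. By a chi-square of their counts per degree of freedom, lungs of a genotype differed beyond counting error (7.47 for Myh10+/+, 12.6 for Myh10-/-), and each lung was 1 replicate. Both values include Xist and Ddx3y, which differed strongly between the lungs of each genotype. They were not computed without such genes.

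Genotypes were compared in R 4.3.3 with the quasi-likelihood test of edgeR 4.0.16 after TMM normalization, over 18763 genes averaging at least 5 counts, with Benjamini-Hochberg adjustment and a threshold of 0.05. Positive fold changes mean higher in Myh10-/- lungs. Exon length (merged exons of all transcripts of a gene) and GC content (longest transcript) came from an annotation of GRCm38, and promoters from RefSeq (GRCm38.p6). The correction for exon length and GC content used a loess fit with a span of 0.3 in each lung. The script was tested on simulated data. Alternatives were other scalings, filters and dispersions, the Wald test of DESeq2 1.42.0, blocks, and each lung left out. The members and all lists were chosen with earlier results of these data known, so no test was made over a list. Named were the genes that passed, the 7 cytokinesis genes, the 5 genes at each end of the fold changes, Mki67, Top2a, Cdk1, Ccnb1, Aurkb, Plk1, the nonmuscle myosin II genes and up to 3 genes of each further list. Other genes named were chosen after their values were seen. Ahsp and Chmp1b of the lists were not matched.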

Additional observations from a re-analysis of the deposited data

How the results depend on the processing

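The median log2 fold change of the 59 genes lay between 0.17 and 0.21 in the fits with all 4 lungs and between 0.16 and 0.23 with a lung left out, where the remaining lung of that genotype was assumed to vary like the others. The number of genes that passed moved more. From 10 it went to 17 with the Wald test of DESeq2, 16 with robust dispersion and 25 with no filter beyond 1 count, and all 10 passed in each of these. With a lung left out it lay between 2 and 31, and the 10 kept between 2 and 10 of their calls. The count over all tested genes was 308, and 474 with robust dispersion, 1162 with no filter, and 191 to 1826 with a lung left out.

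Replicate numbers do not pair the lungs, since deviations of same-numbered lungs had a correlation of -0.214 across tested genes and -0.019 without chromosomes X, Y and MT. With the replicate block 20 of the 59 and 710 of all genes passed, and with the block and the GC and length correction 19 and 783. With the pairing crossed, an alternative added after the data were seen, 13 and 415 passed. Among the fits with a replicate block, Ncapg did not pass once the correction was added (adjusted p = 0.103), and with the pairing crossed Cenpf did not (0.0661).

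The cytokinesis minus spindle difference of -0.10 lay between -0.0928 and -0.0743 with a lung left out and was -0.0770 with the wider cytokinesis list. With both the wider list and the GC and length correction, little of it was left (medians of 0.170 and 0.178). With a lung left out, the log2 fold changes of Plk1, Cdc20, Aurka and Kif22 crossed 0, from -0.0718 to 0.0897 for Plk1, -0.0866 to 0.122 for Cdc20, -0.0241 to 0.0710 for Aurka and -0.00849 to 0.141 for Kif22. When the 50 bases after the start were left out, CHR was present in 22 of the 53 promoters (41.5%, against 17.1% of all promoters) and both promoter sequences in 35.8%, against 6.02%. The further mitotic genes that passed numbered 4, and 10 with no filter, 7 with block and correction, and 0 to 19 with a lung left out. Of the replication genes 0 passed, and 1 with the Wald test or the crossed pairing, 2 with robust dispersion, no filter or no genes on X, Y and MT, 3 with block and correction, and 0 to 5 with a lung left out. Ring and abscission genes numbered 2, and 1 with DESeq2 size factors, library totals, no genes on X, Y and MT or the crossed pairing, 4 with block and correction, and 1 to 4 with a lung left out. Cell cycle brakes and their regulators numbered 2, and 6 with no filter. The cause of these shifts was not tested. With 2 lungs a genotype, small differences may go undetected.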
